A study of Mus musculus with 8 samples.

Results

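The 7 classical deacetylase genes outside class I, namely Hdac4, Hdac5, Hdac7 and Hdac9 (class IIa), Hdac6 and Hdac10 (class IIb) and Hdac11 (class IV), were followed in a mouse carcinoma cell line. They were taken by gene symbol from the 24411 genes in the count files, and all 7 were found. Poly(A)-selected RNA of A223 cells, which the labels describe as a squamous cell carcinoma line, was sequenced in 8 libraries, 2 for each of 4 groups. The groups were PRDX6 knockdown cells with 100 nM largazole for 18 h (KD largazole), PRDX6 knockdown cells with DMSO at 0 h (KD DMSO), parental cells with 100 nM largazole for 18 h (parental largazole) and parental cells with DMSO at 0 h (parental DMSO). Largazole is a depsipeptide that inhibits class I histone deacetylases. PRDX6 is a peroxiredoxin, an enzyme that reduces peroxides and oxidised phospholipids. Drug and time changed together, so the effect of the drug and of the hours in culture cannot be told apart. The labels name no non-targeting construct, so the knockdown is set against parental cells, and they do not say whether the knockdown line is 1 clone or a pool. The labels do not tell whether the 2 replicates of a group were cultured apart. Each p-value therefore reflects how far these libraries differ, and that may be technical variation alone.

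Class IIa deacetylases have little catalytic activity of their own and act as signal-controlled corepressors. They bind MEF2 transcription factors and bring in the NCoR/SMRT complex with HDAC3. When kinases of the CaMK, protein kinase D or SIK families phosphorylate them, they are held in the cytoplasm by 14-3-3 proteins and MEF2 targets are released. HDAC6 is mainly cytoplasmic, removes acetyl groups from tubulin, cortactin and HSP90, and carries ubiquitinated proteins to the aggresome. HDAC10 is best known as a deacetylase of acetylated polyamines. HDAC11, the sole class IV enzyme, removes long fatty acyl groups, with serine hydroxymethyltransferase 2 as a reported substrate. Class IIa proteins are not primary targets of largazole, but the level of their transcripts can be followed in the same libraries.

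Libraries held 13020492 to 15613216 counts, and 12517 genes passed the filter on low counts, all 7 deacetylases among them. Prdx6 averaged 73.0 CPM in KD largazole against 244.9 CPM in parental largazole. In DMSO it averaged 82.9 CPM in KD cells against 289.8 CPM in parental cells (log2 fold change -1.80, adjusted p = 1.28e-05). CPM are TMM-scaled counts relative to library size. Of 11 keratinocyte and squamous markers, 5 reached 1 CPM in each largazole group and 3 in each DMSO group. Krt5, Krt6a, Krt16 and Krt17 were at or near 0 in every group. Trp63 was at 0 in DMSO and averaged 0.670 CPM in KD and 0.572 CPM in parental largazole. With largazole Krt14 averaged 1.79 CPM in KD and 3.15 CPM in parental cells, and Epcam 3.51 and 2.78 CPM. In DMSO Krt14 averaged at most 0.145 CPM and Epcam was at 0. Sfn averaged 2.36 to 3.41 CPM over the groups, while Krt8 averaged 1060 to 2225 CPM and Krt18 96.3 to 170.5 CPM. Cdh1 averaged 0.0698 to 0.638 CPM. Krt5, Krt14, Krt6a, Krt16, Krt17 and Trp63 were thus at or near 0 in DMSO, and these markers did not bear out the squamous label there. With largazole they matched it only weakly. Of 6 fibroblast markers, 5 reached 1 CPM in every group, with Col1a1 at 1181 to 1804 CPM. The summed level of 4 neuronal markers was 19.2 to 23.5 CPM in the largazole libraries and 0.516 to 1.11 CPM in the DMSO libraries, and that of 6 muscle markers was 4.38 to 5.77 CPM in the largazole and 0.737 to 1.63 CPM in the DMSO libraries, with Rbfox3, Myod1, Myog and Actn2 at 0 throughout. The summed level of 6 immune markers was 41.9 to 63.2 CPM in the largazole libraries and 4.07 to 4.79 CPM in the DMSO libraries, nearly all of it Cd68, with Cd3e and Adgre1 at 0 throughout. Their part in the results was not tested. Replicates stood farthest apart in KD largazole, where the SD over genes of the log2 difference between the 2 libraries was 0.36, against 0.19 to 0.22 in the other groups. Rn45s, the ribosomal RNA precursor, was at 23915 and 742 CPM in the 2 KD largazole libraries. In bulk RNA, fewer cells with a transcript and less transcript per cell cannot be told apart.

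The 3 genes whose transcripts passed the test for largazole in both genotypes, Hdac5, Hdac6 and Hdac11, lie on different chromosomes, and the sequences upstream of their starts are shown so that they can be read beside their responses. Hdac5 is on chromosome 11 (102194432 to 102230166, minus strand), Hdac6 on chromosome X (7930120 to 7947889, minus strand) and Hdac11 on chromosome 6 (91156665 to 91174692, plus strand), in GENCODE M21 on GRCm38. The sequences are RefSeq promoter windows on GRCm38.p6, printed 5′ to 3′ and only as far as the annotated gene. Capitals mark the GC box, whose letters are GGGCGG, the box named after its letters CCAAT, and a MEF2 site, each searched on both strands.
Hdac5 upstream, chr11:102230173-102230422, minus strand: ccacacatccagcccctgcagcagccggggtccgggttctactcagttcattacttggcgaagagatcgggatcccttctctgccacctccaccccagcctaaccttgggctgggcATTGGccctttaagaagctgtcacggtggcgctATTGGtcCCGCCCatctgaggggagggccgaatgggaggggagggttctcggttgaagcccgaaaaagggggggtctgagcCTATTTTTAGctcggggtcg
Hdac6 upstream, chrX:7947890-7948139, minus strand: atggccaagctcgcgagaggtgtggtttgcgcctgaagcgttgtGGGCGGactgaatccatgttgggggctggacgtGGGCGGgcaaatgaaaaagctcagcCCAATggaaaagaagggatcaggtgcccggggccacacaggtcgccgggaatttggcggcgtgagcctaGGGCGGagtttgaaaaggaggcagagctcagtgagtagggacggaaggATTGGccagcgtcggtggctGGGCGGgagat
Hdac11 upstream, chr6:91156565-91156664, plus strand: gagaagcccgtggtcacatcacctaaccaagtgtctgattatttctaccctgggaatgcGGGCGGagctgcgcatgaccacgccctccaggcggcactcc
The Hdac5 window held 1 GC box, 2 CCAAT boxes and 1 MEF2 site, which began 20 bases before the start. The Hdac6 window held 4 GC boxes and 2 CCAAT boxes. The stretch shown for Hdac11, 100 bases long, held 1 GC box. Its full window of 250 bases, which runs into the annotated gene, held 1 GC box and 1 CCAAT box. None of the marked motifs shared a base with another. Over 32851 promoter windows of 250 bases, 32.7% held a GC box, 33.8% a CCAAT box and 2.92% a MEF2 site. Promoter windows were matched for 6 of the 7 genes, 10 windows in all. Among those not printed, the Hdac4 window held 4 GC boxes and 2 CCAAT boxes, and neither of the 2 Hdac9 windows held either motif. A match describes letters in the window and is not a binding site.

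The transcripts responded differently to largazole. Hdac5 fell in both genotypes, to 0.659 of the DMSO level in KD cells and 0.578 of it in parental cells. Hdac11, very low in DMSO, rose 4.27-fold in KD cells and 4.36-fold in parental cells. Hdac6 rose slightly, 1.16-fold in KD cells and 1.22-fold in parental cells. With edgeR's quasi-likelihood test and Benjamini-Hochberg adjustment over the 12517 genes, 3 of the 7 genes passed in KD cells (2 higher, 1 lower), where 47.7% of all tested genes passed (24.6% higher, 23.1% lower). In parental cells the same 3 genes passed in the same directions, where 49.3% of all tested genes passed (26.8% higher, 22.6% lower). The share of the 7 genes that passed was therefore near the background in both genotypes. Their median log2 fold change was 0.22 in KD cells, where that of all tested genes was 0.01, and 0.01 in parental cells, where that of all tested genes was 0.03.

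With the knockdown, Hdac5 was higher in both treatments, opposite in sign to its largazole value. Under largazole, 2 of the 7 genes passed, Hdac5 higher and Hdac7 lower, where 17.8% of all tested genes passed (8.12% higher, 9.67% lower). In DMSO 2 of the 7 passed, Hdac5 higher and Hdac10 lower, where 11.1% of all tested genes passed (7.11% higher, 4.01% lower). Either call in DMSO was lost when some single libraries were left out, as given with each gene. The median log2 fold change of the 7 genes was -0.09 under largazole and -0.17 in DMSO, while that of all tested genes was within 0.01 of 0. None of the 7 passed the test of the difference between the KD and the parental largazole response with edgeR, and 0.232% of all tested genes did (0.0399% higher, 0.192% lower). These were 29 genes, with 1089 at an unadjusted p under 0.05. DESeq2 called 83 genes in that test. None of the 7 was called there by DESeq2 or limma-voom, and none had an unadjusted p under 0.05. The largazole and knockdown comparisons share libraries, so their values are given side by side and not as separate evidence.

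**Figure D1:**
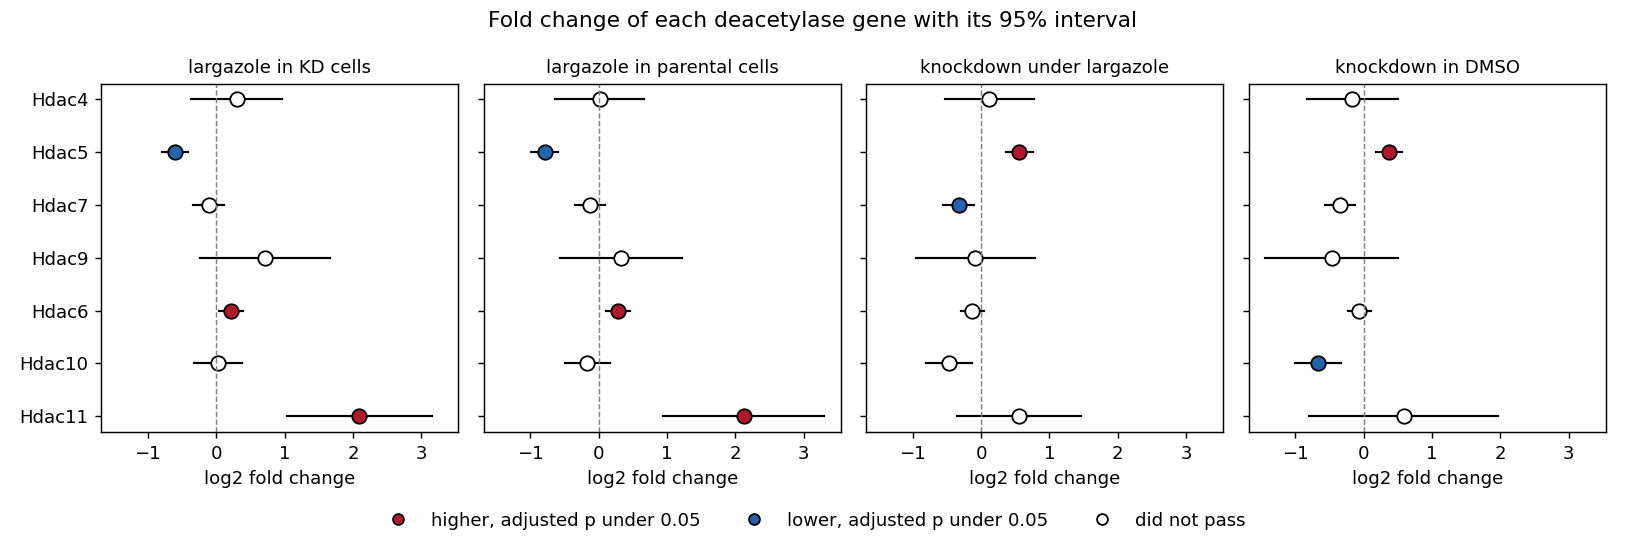
Log2 fold changes of the 7 genes (x axis) with their 95% intervals, for largazole in KD and in parental cells and for the knockdown under largazole and in DMSO. Hdac5 is negative for largazole (-0.60 in KD and -0.79 in parental cells) and positive for the knockdown (0.56 under largazole and 0.37 in DMSO), while Hdac11 is near 2.1 for largazole in both genotypes with wide intervals.

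Levels were compared between genes only per kilobase of annotated exon (CPM per kb). In parental DMSO the order was Hdac7 at 17.7 ± 0.313, Hdac6 at 15.3 ± 0.461, Hdac5 at 13.3 ± 0.296 and Hdac10 at 4.48 ± 0.438 CPM per kb (SD, n = 2). Far lower came Hdac4 at 0.510 ± 0.0457, Hdac11 at 0.176 ± 0.0503 and Hdac9 at 0.0891 ± 0.00237 CPM per kb. In that group, no neighbours in this order overlapped in their 2 libraries. Hdac7 stood at percentile 75.5 and Hdac9 at percentile 5.7 of the tested genes per kb. Class I genes stood higher in parental DMSO, with Hdac1 at 47.1, Hdac2 at 42.0 and Hdac3 at 28.7 CPM per kb, but Hdac8 was at 1.75 CPM per kb. The order depends on the length used. Per kb of the longest annotated transcript, Hdac5 (21.7) stood above Hdac6 (17.6), with Hdac7 (23.1) still first.

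Per kb of all annotated exons, the leading gene differed between groups. These orders and the shares below also depend on the length, and the longest transcript was applied to parental DMSO only. The 2 lengths are 8780 and 5406 bases for Hdac5, 6755 and 5179 for Hdac7, and 5817 and 5037 for Hdac6. With the longest transcript, Hdac5 and Hdac7 would therefore stand higher beside Hdac6. In KD largazole Hdac6 led at 17.0 ± 0.573 CPM per kb, ahead of Hdac7 at 12.9 ± 1.74 and Hdac5 at 11.3 ± 0.925, and the libraries of Hdac7 and Hdac5 overlapped. In KD DMSO Hdac5 led at 17.2 ± 0.0798 CPM per kb, ahead of Hdac6 at 14.6 ± 0.153 and Hdac7 at 13.9 ± 0.0055. In parental largazole the order was Hdac6 at 18.6 ± 0.480, Hdac7 at 16.3 ± 1.14 and Hdac5 at 7.72 ± 0.486 CPM per kb. Hdac5 therefore held 24.4% and 24.95% of the summed signal of the 7 genes in KD largazole, 35.2% and 34.6% in KD DMSO, 16.3% and 15.9% in parental largazole, and 26.0% and 25.7% in parental DMSO. The groups did not overlap in this share, although KD largazole and parental DMSO lay close together. The summed level of the 7 genes moved less, at 43.8 and 48.1 CPM per kb in KD largazole, 49.2 and 49.7 in KD DMSO, 49.5 and 46.4 in parental largazole, and 52.1 and 51.1 in parental DMSO. No test was run on the shares or the sum.

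**Figure D2:**
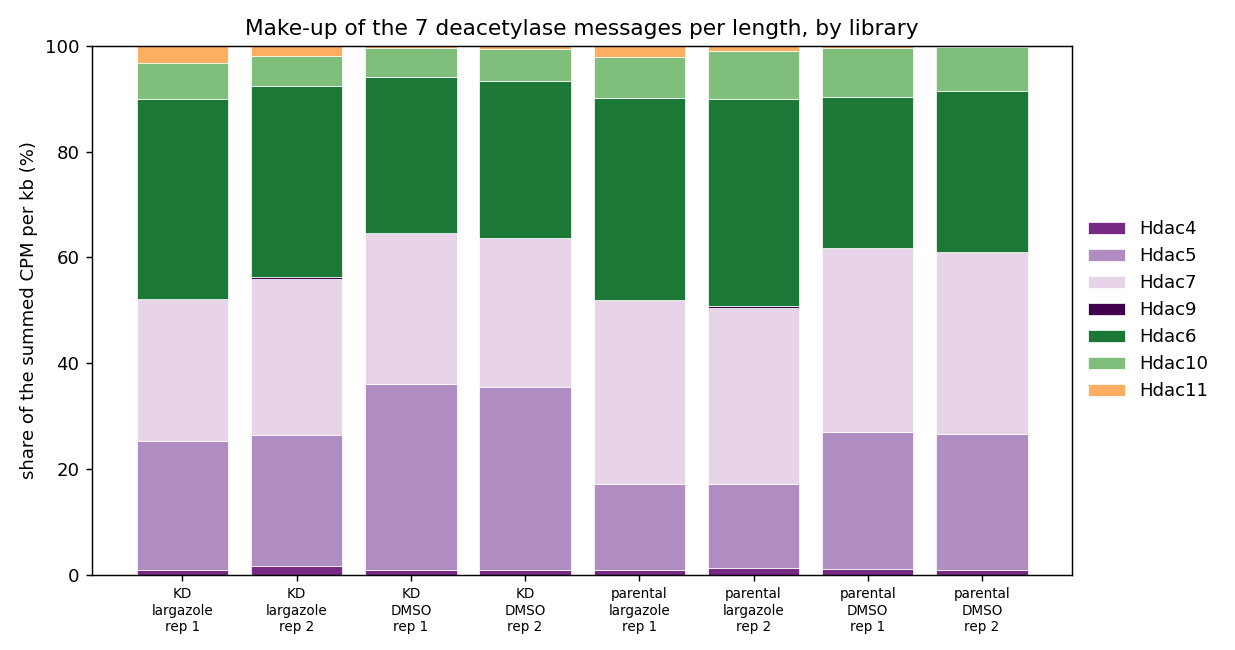
Share of each gene in the summed CPM per kb of the 7 deacetylases (y axis, percent), 1 stacked bar per library, with largazole libraries left of their DMSO libraries and KD cells left of parental cells. Hdac5 takes 15.9% to 24.95% in the largazole libraries and 25.7% to 35.2% in the DMSO libraries.

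Hdac5, a class IIa deacetylase known for restraining stress-induced growth of the heart, was the gene that passed in all 4 comparisons of largazole and the knockdown. It was measured at 93.8 and 105 CPM in KD largazole, 152 and 151 CPM in KD DMSO, 70.8 and 64.7 CPM in parental largazole, and 119 and 115 CPM in parental DMSO. Every largazole library lay below every DMSO library, and every KD library lay above the parental libraries of the same treatment. Under largazole the log2 fold change was -0.60 ± 0.09 in KD cells (SE, adjusted p = 0.000312) and -0.79 ± 0.09 in parental cells (adjusted p = 6.01e-05). Both calls held in all 18 alternatives, from another scaling to leaving out any 1 library. The difference between these responses was 0.19 (95% interval -0.09 to 0.46, adjusted p = 0.772), so no difference between genotypes was shown. Under largazole Hdac5 was higher in KD than in parental cells by 0.56 ± 0.09 on the log2 scale (adjusted p = 0.00228), again in all 18 alternatives. In DMSO the log2 fold change was 0.37 ± 0.09 (adjusted p = 0.0217), and this call was lost without KD DMSO replicate 1 (adjusted p = 0.154) or 2 (0.128), parental DMSO replicate 1 (0.169) or 2 (0.225), or parental largazole replicate 2 (0.0519). A microRNA gene, Mir8101, lies within its exons on the same strand over 111 bases.

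Hdac7, a class IIa member best known in endothelial cells and thymocytes, was lower in the knockdown under largazole and did not pass for largazole. The gene lies on chromosome 15 (97792664 to 97844502, minus strand). It was measured at 79.0 and 95.6 CPM in KD largazole, 94.2 and 94.2 CPM in KD DMSO, 115 and 104.5 CPM in parental largazole, and 121 and 118 CPM in parental DMSO. The KD libraries lay below the parental libraries in both treatments. Largazole libraries lay below DMSO libraries in parental cells and overlapped them in KD cells. The knockdown value was -0.33 ± 0.10 under largazole (adjusted p = 0.0479) and -0.35 ± 0.10 in DMSO (adjusted p = 0.0547), on the log2 scale. These values lie on either side of the threshold, and the first passed in 8 and the second in 7 of 18 alternatives. The first was lost in 7 of the 8 fits that each left out 1 library (adjusted p 0.0841 to 0.276), all but the one without KD largazole replicate 2. For largazole the log2 values were -0.11 (adjusted p = 0.405) in KD cells and -0.12 (adjusted p = 0.329) in parental cells. Of 4 endothelial markers Kdr was at 0 in every group, and 2 of the 4 reached 1 CPM in each. Hdac7 shares 29 exonic bases with Slc48a1 on the opposite strand. That neighbour was at 642 and 555 CPM in KD largazole, 458 and 431 CPM in KD DMSO, 540 and 512 CPM in parental largazole, and 379 and 372 CPM in parental DMSO. Slc48a1 was higher in every largazole library than in every DMSO library, while Hdac7 did not pass for largazole.

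Hdac4, a regulator of chondrocyte hypertrophy and of muscle, was low and did not pass in any comparison. The gene lies on chromosome 1 (91928779 to 92195699, minus strand). Its values were 5.61 and 11.9 CPM in KD largazole, 6.92 and 7.44 CPM in KD DMSO, 7.29 and 8.96 CPM in parental largazole, and 8.58 and 7.56 CPM in parental DMSO. The KD largazole libraries hold both its lowest and its highest value. They differed by 1.06 on the log2 scale, and 2.3% of tested genes differed more between these libraries. For largazole its log2 value in KD cells was 0.30 ± 0.30 (adjusted p = 0.437) and became 0.72 (adjusted p = 0.00663) without KD largazole replicate 1 and -0.36 without replicate 2. In parental cells it was 0.01 ± 0.29 (95% interval -0.64 to 0.67), so neither a change within that interval nor its absence was shown. The annotation places a noncoding RNA gene on the opposite strand, Gm26720, over 3536 of its exonic bases.

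Hdac9, a class IIa gene that is itself reported to be switched on by MEF2 in muscle, had the lowest level per kb of the 7. The gene lies on chromosome 12 (34047580 to 34917095, minus strand). Its counts were 15 and 28 in KD largazole, 13 and 14 in KD DMSO, 18 and 31 in parental largazole, and 18 and 19 in parental DMSO. Largazole libraries lay above DMSO libraries in KD cells and overlapped them in parental cells. The log2 values for largazole were 0.71 ± 0.43 (adjusted p = 0.197) in KD cells and 0.33 ± 0.40 (adjusted p = 0.526) in parental cells. At this depth the 95% intervals ran from -0.24 to 1.66 in KD cells and from -0.56 to 1.21 in parental cells, so neither a change nor its absence was shown. The knockdown values were -0.09 under largazole (adjusted p = 0.911) and -0.47 in DMSO (adjusted p = 0.568).

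**Figure D3:**
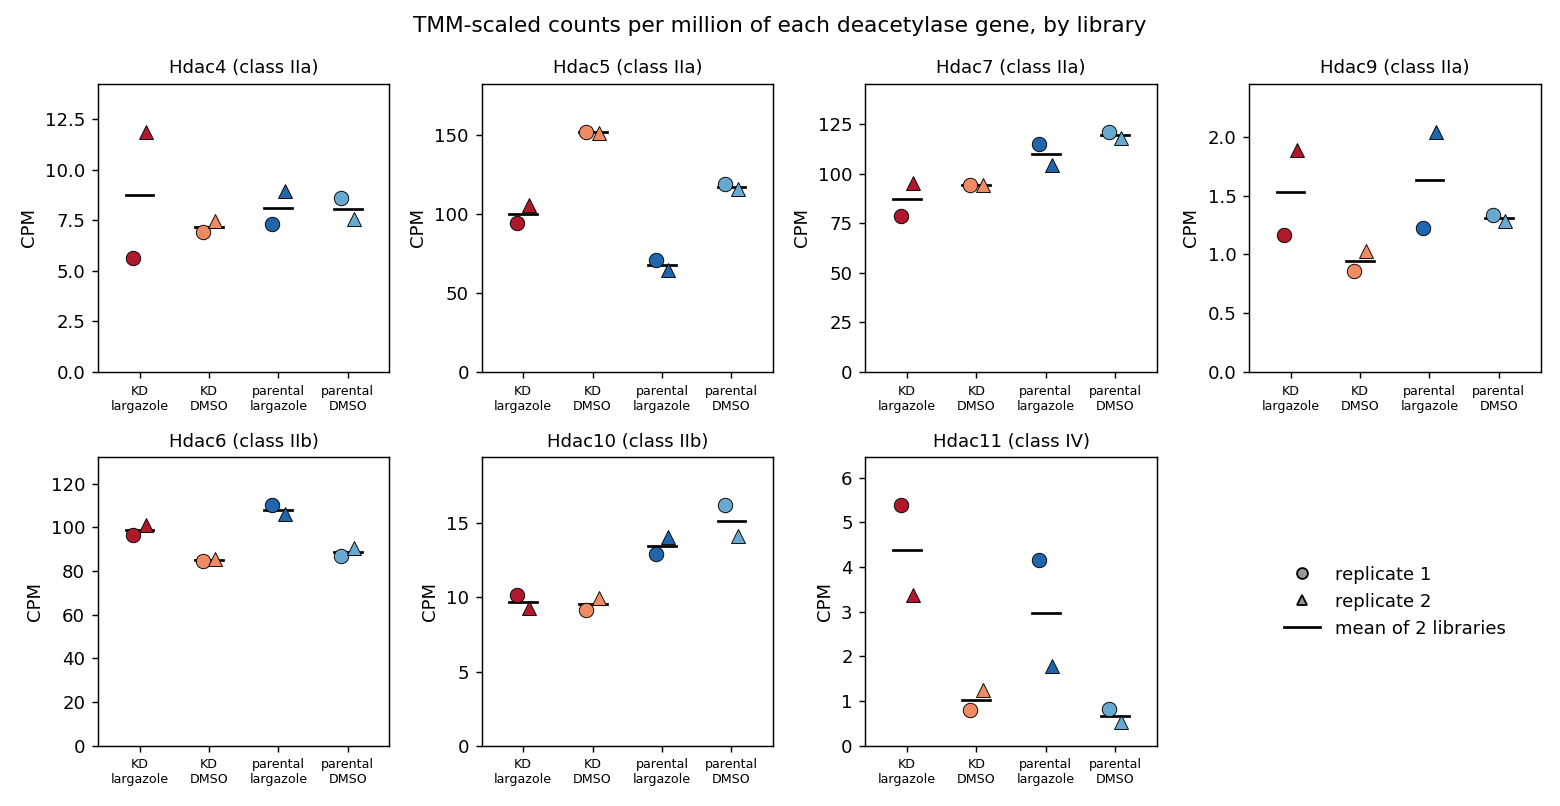
CPM of each deacetylase (y axis, 1 panel per gene, each from 0 on its own linear scale) in KD largazole, KD DMSO, parental largazole and parental DMSO, left to right. Points are libraries and bars are means of 2 libraries. Hdac5 is lower with largazole in both genotypes, Hdac10 is 9.15 to 10.1 CPM in all KD libraries and 12.9 to 16.2 CPM in all parental ones, and Hdac11 is spread widely within the largazole groups.

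Hdac6, the class IIb tubulin deacetylase, rose modestly with largazole. It was measured at 96.6 and 101 CPM in KD largazole, 84.5 and 85.8 CPM in KD DMSO, 110.1 and 106 CPM in parental largazole, and 86.9 and 90.7 CPM in parental DMSO. Every largazole library lay above every DMSO library, in both genotypes. The log2 fold change was 0.22 ± 0.08 in KD cells (adjusted p = 0.0428) and 0.28 ± 0.08 in parental cells (adjusted p = 0.0127). The KD call passed in 8 of 18 alternatives and was lost with DESeq2 (adjusted p = 0.0946). It was also lost in 7 of the 8 fits that each left out 1 library (adjusted p 0.0743 to 0.182), all but the one without KD largazole replicate 1. The parental call was lost when any of its own 4 libraries was left out (adjusted p 0.0658 to 0.14) and passed in the other 14. The knockdown values were -0.13 under largazole (adjusted p = 0.300) and -0.06 in DMSO (adjusted p = 0.6995).

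Hdac10, the class IIb polyamine deacetylase, was lower in the knockdown in DMSO. The gene lies on chromosome 15 (89123307 to 89128700, minus strand). It was measured at 10.1 and 9.31 CPM in KD largazole, 9.15 and 9.95 CPM in KD DMSO, 12.9 and 14.04 CPM in parental largazole, and 16.2 and 14.1 CPM in parental DMSO. All 4 KD libraries lay below all 4 parental libraries. It fell with the knockdown in DMSO (log2 fold change -0.67 ± 0.15, adjusted p = 0.0192). This call was lost without either KD DMSO library (adjusted p = 0.155 and 0.0754) or either parental DMSO library (0.165 and 0.0671). Under largazole the value was -0.47 ± 0.15 (adjusted p = 0.0557), and 3 of 18 alternatives passed, namely library totals (0.0447), the replicate block (0.0448) and the fit without KD largazole replicate 1 (0.0392). For largazole the log2 values were 0.02 ± 0.16 in KD cells (adjusted p = 0.908) and -0.17 ± 0.15 in parental cells (adjusted p = 0.371).

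Hdac11, the class IV enzyme, had the largest fold changes of the 7 with largazole. Its counts in DMSO were low, and in parental DMSO they were the smallest of the 7. Its counts were 69 and 50 in KD largazole, 12 and 17 in KD DMSO, 61 and 27 in parental largazole, and 11 and 8 in parental DMSO. In CPM these are 5.38 and 3.37 in KD largazole, 0.790 and 1.25 in KD DMSO, 4.15 and 1.78 in parental largazole, and 0.813 and 0.540 in parental DMSO. Every largazole library lay above every DMSO library, but the largazole replicates differed by 0.65 on the log2 scale in KD cells and by 1.16 in parental cells, where 0.9% of tested genes differed more. The log2 fold change was 2.09 ± 0.48 in KD cells (95% interval 1.03 to 3.15, adjusted p = 0.00492) and 2.12 ± 0.53 in parental cells (0.95 to 3.30, adjusted p = 0.00765). The KD call held in all 18 alternatives. The parental call was lost without parental DMSO replicate 2 (adjusted p = 0.066) or parental largazole replicate 1 (log2 fold change 1.39, adjusted p = 0.0826). Hdac11 was higher in replicate 1 than in replicate 2 in both largazole groups, and so was Rn45s, at 23915 and 742 CPM in KD largazole and 7739 and 949.8 CPM in parental largazole. In KD DMSO Rn45s was also higher in replicate 1 (9963 and 2549 CPM), while Hdac11 was lower there. The part of Rn45s was not tested beyond a fit without that gene, in which every call of the 7 genes was kept. The knockdown values of Hdac11 were 0.55 ± 0.41 under largazole (adjusted p = 0.397) and 0.59 ± 0.62 in DMSO (adjusted p = 0.626). Exons of Gm44002 (594 bases) and Gm14573 (96 bases) overlap it on the opposite strand.

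The partners of class IIa proteins were read from lists of the MEF2 factors, kinases, 14-3-3 proteins and corepressors. Of 3 MEF2 factors tested, Mef2c alone passed for largazole, at 5.17 CPM in KD largazole against 2.02 CPM in KD DMSO and at 4.04 CPM in parental largazole against 0.765 CPM in parental DMSO. Its log2 fold changes were 1.35 ± 0.29 in KD cells (adjusted p = 0.00373) and 2.37 ± 0.35 in parental cells (adjusted p = 0.000349), and the difference between them did not pass (-1.02, adjusted p = 0.581). For the knockdown, 2 of the 3 passed in DMSO, where 11.1% of all tested genes passed, and none under largazole with edgeR, DESeq2 or limma-voom (1 at an unadjusted p under 0.05). In DMSO Mef2c was higher by 1.37 ± 0.38 (adjusted p = 0.0451) and Mef2a was lower (log2 fold change -0.47 ± 0.13, adjusted p = 0.0451), but DESeq2 and limma-voom each called 1 of them, and without 1 library the count ran from 0 to 2. Mef2d averaged 62.0 to 65.6 CPM over the groups and Mef2b at most 0.176 CPM, under the filter. Of 13 kinases, 4 were higher and 1 lower with largazole in KD cells, and 3 were higher and 1 lower in parental cells. Leaving out 1 library gave 3 to 8 kinases in KD cells and 2 to 8 in parental cells. None was called for the knockdown with edgeR, DESeq2 or limma-voom, and 1 kinase had an unadjusted p under 0.05 in each knockdown comparison. Sik1, a salt-inducible kinase, rose by 0.97 in KD and 1.00 in parental cells, Camk2g by 0.43 and 0.56, and Prkd1, a protein kinase D, by 0.56 and 0.52, on the log2 scale, while Sik3 fell (-0.33 in KD and -0.32 in parental cells). Of the 7 genes for 14-3-3 proteins, 1 was higher and 1 lower with largazole in KD cells, and 1 was higher and 2 lower in parental cells. Ywhab was higher in both genotypes (0.20 and 0.19), Ywhah lower in both (-0.34 and -0.26) and Ywhaz lower in parental cells (-0.21). Without 1 library the 14-3-3 count ran from 1 to 4 in KD cells and from 0 to 4 in parental cells. Of 13 corepressors and binding partners, 1 was higher and 4 lower in KD cells, and 1 was higher and 3 lower in parental cells. Cbx5, which encodes heterochromatin protein HP1 alpha, fell (log2 fold changes -0.78 in KD and -0.76 in parental cells), and so did the corepressor Ctbp1 (-0.57 in KD and -0.65 in parental cells) and Bcor (-0.59 and -0.29), while Tbl1xr1, of the NCoR complex, rose by 0.36 and 0.25. Without 1 library the corepressor count ran from 3 to 8 in KD cells and from 2 to 7 in parental cells. The list medians were within 0.2 of the median of all genes in both largazole comparisons, and in those comparisons none of these 4 lists had a larger share of genes called than all tested genes (47.7% in KD and 49.3% in parental cells). For the knockdown the background was 17.8% under largazole and 11.1% in DMSO. Of the 7 genes for 14-3-3 proteins, 3 were lower under largazole, a share above that background (Ywhae at -0.32, Ywhah at -0.30 and Ywhag at -0.28), and Ywhae was lower in DMSO (-0.36). Of the 13 corepressors, 2 were higher and 3 lower under largazole, also a share above it (Rfxank at 0.51, Cbx5 at -0.36, Bcor at -0.36 and Ctbp2 at -0.33 changed most), and Cbx5 was lower in DMSO (-0.34). These counts were not stable to the libraries used. Without 1 library they ran from 0 to 3 and from 0 to 7 under largazole, and from 0 to 4 and from 0 to 3 in DMSO, for the 14-3-3 and corepressor lists in that order.

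Genes reported as class IIa or MEF2 targets moved both ways. Of 11 tested, 2 were higher and 5 lower with largazole in KD cells, and 3 were higher and 4 lower in parental cells, so 7 of 11 passed in each, where 47.7% and 49.3% of all tested genes passed. Klf2, an endothelial MEF2 and HDAC7 target, rose by 1.45 in KD and 1.61 in parental cells on the log2 scale. Jun, an immediate early gene with MEF2 sites in its promoter, fell (log2 fold changes -0.87 in KD and -0.94 in parental cells). Mmp10, reported as an HDAC7 target in mouse endothelium, averaged 8.996 CPM in KD largazole, 41.0 CPM in KD DMSO, 8.26 CPM in parental largazole and 16.9 CPM in parental DMSO. It fell with largazole in both genotypes (log2 fold changes -2.18 and -1.03), and was higher in the knockdown in DMSO (1.28, adjusted p = 0.000321). Mmp13, reported as a gene that HDAC4 represses through RUNX2, was higher in the knockdown, by 1.26 under largazole and 2.92 in DMSO. Nr4a2, an orphan nuclear receptor gene, fell with largazole (-0.98 in KD and -0.49 in parental cells). With the knockdown 3 of the 11 genes were higher and 2 lower under largazole, where 17.8% of all tested genes passed, and 3 were higher in DMSO, where 11.1% passed. Both shares were above the background, and without 1 library the counts ran from 1 to 6 and from 3 to 5. Under largazole Nr4a1 was at 0.62, Nr4a2 at 0.59 and Klf4 at -0.49, and in DMSO Nr4a2 was at 1.07, on the log2 scale. The largazole values of Mmp13 had opposite signs, -0.65 in KD (adjusted p = 0.0332) and 1.01 in parental cells (adjusted p = 0.0264). The difference did not pass with edgeR (-1.66, adjusted p = 0.158). Both largazole calls count in the totals above, lay near the threshold and were lost in some alternatives. Mmp13 was low, at 0.845 CPM in parental DMSO. In the test of that difference DESeq2 called 1 of the 11 genes and limma-voom 0, and 3 had an unadjusted p under 0.05 with edgeR.

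Tubulin acetylation genes and HDAC6 partners were read beside Hdac6. Of 10 tested, 2 were higher and 3 lower with largazole in each genotype, close to the 47.7% of all tested genes in KD and 49.3% in parental cells. Without 1 library the count ran from 3 to 6 in KD and from 3 to 7 in parental cells. Sirt2, the other tubulin deacetylase, averaged 110 CPM in KD largazole, where KD DMSO was at 50.0 CPM, and 109.3 CPM in parental largazole against 50.5 CPM in parental DMSO (log2 fold changes 1.13 ± 0.10 and 1.11 ± 0.10, adjusted p = 1.38e-05 and 1.60e-05). The HSP90 gene Hsp90ab1 fell (log2 fold changes -0.52 in KD and -0.66 in parental cells). Vcp, which encodes the ubiquitin-dependent ATPase VCP, a binding partner of HDAC6, also fell (-0.37 in KD and -0.33 in parental cells), as did Hsf1 (-0.40 and -0.39). Atat1, the tubulin acetyltransferase gene, rose by 0.61 in parental cells, near the threshold (adjusted p = 0.0449 with edgeR), and this call was lost in some alternatives. Its parental DMSO libraries were at 5.10 and 8.03 CPM, and without 1 library its log2 value ran from 0.31 to 0.97. With the knockdown 2 of 10 were lower under largazole (Hsp90aa1 at -0.39 and Ptpn1 at -0.35), where 17.8% of all tested genes passed. In DMSO Hsp90aa1 was lower (-0.31), where 11.1% passed. Both counts changed with the library left out. Under largazole the log2 values then ran from -0.44 to -0.34 for Hsp90aa1 and from -0.39 to -0.29 for Ptpn1, and in DMSO from -0.36 to -0.27 for Hsp90aa1.

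Of 8 polyamine genes tested, read beside Hdac10, 2 were higher and 3 lower with largazole in KD cells, and 4 were higher and 2 lower in parental cells. The shares, 5 of 8 and 6 of 8, were above the 47.7% and 49.3% of all tested genes. Sat2, a homologue of spermidine acetyltransferase, was low and rose by 2.59 in KD and 2.00 in parental cells. At 0.337 to 0.593 CPM in the DMSO libraries, it lay under the filter cutoff of 0.697 CPM. Sat2 was therefore tested through its largazole libraries alone, and its calls within both shares depend on that filter. Smox, spermine oxidase, averaged 122 CPM in KD largazole, 56.6 CPM in KD DMSO, 65.8 CPM in parental largazole and 25.5 CPM in parental DMSO. It rose with largazole by 1.10 in KD and 1.36 in parental cells, and with the knockdown by 0.89 under largazole and 1.15 in DMSO. Srm, spermidine synthase, fell in all 4 comparisons, with log2 fold changes of -0.70 for largazole in KD cells, -0.50 for largazole in parental cells, -0.69 for the knockdown under largazole and -0.49 for the knockdown in DMSO. Azin1, antizyme inhibitor, fell with largazole (-0.67 in KD and -0.49 in parental cells). With the knockdown 3 of the 8 genes were higher and 2 lower under largazole, where 17.8% of all tested genes passed, and 2 were higher and 1 lower in DMSO, where 11.1% passed. Both shares were above the background, and without 1 library the counts ran from 2 to 6 and from 2 to 5. Sat2 (1.13) and Azin1 (-0.44) passed under largazole, and Odc1, ornithine decarboxylase, was higher by 1.26 in DMSO. Shmt2, the reported HDAC11 substrate, averaged 218 CPM in KD largazole, 635.5 CPM in KD DMSO, 344 CPM in parental largazole and 823 CPM in parental DMSO. It fell with largazole (log2 fold changes -1.54 in KD and -1.26 in parental cells), while Hdac11 rose. Shmt2 was also lower with the knockdown, by edgeR at -0.65 under largazole (adjusted p = 0.00043) and -0.37 in DMSO (adjusted p = 0.0102). Hdac11 did not pass in either knockdown comparison, and a link between the 2 genes was not tested.

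**Figure D4:**
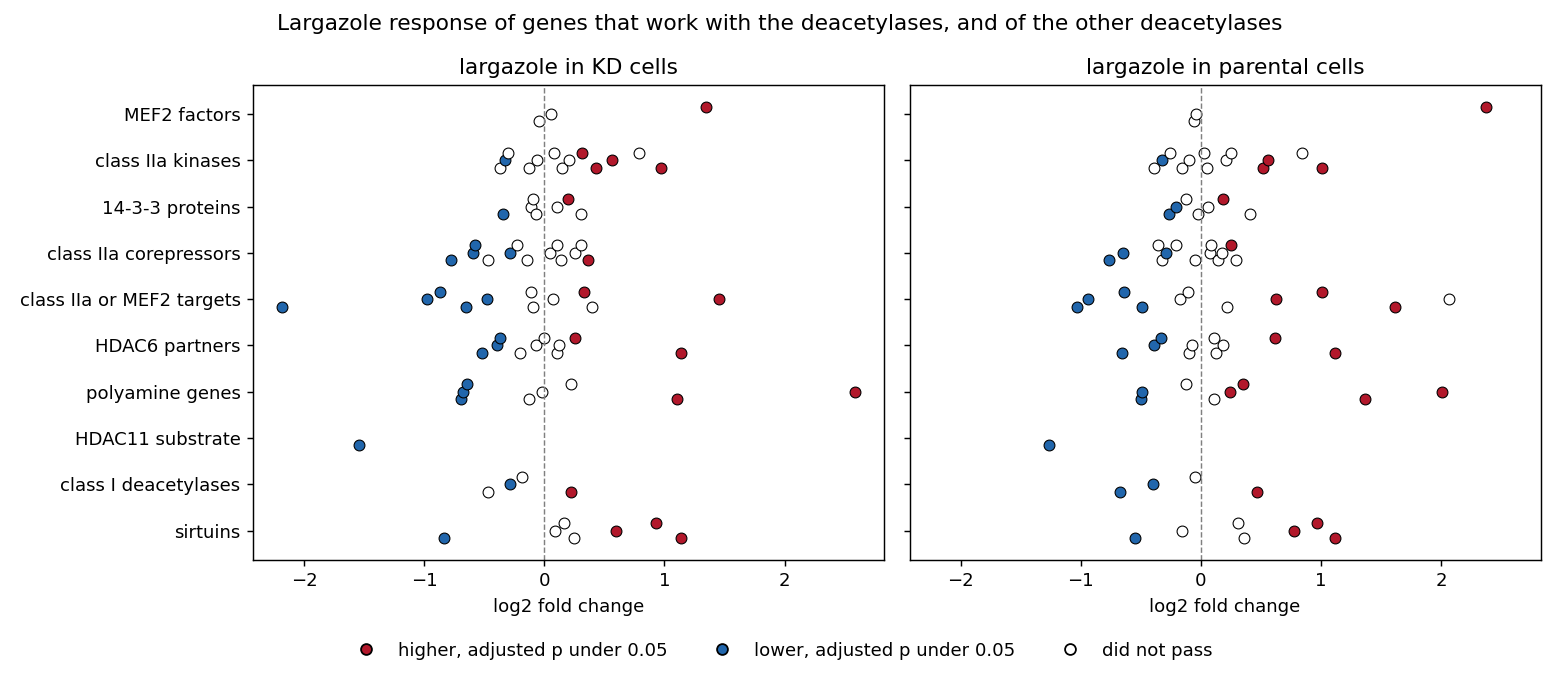
Log2 fold changes with largazole (x axis) for each tested gene of the partner, target and substrate lists, 1 point per gene, for KD and parental cells, with filled points for genes that passed the test. Every list of more than 3 tested genes holds points on both sides of 0.

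The other deacetylases give the frame. Of 4 class I genes, 1 was higher and 1 lower with largazole in KD cells, and 1 was higher and 2 lower in parental cells, where 47.7% and 49.3% of all tested genes passed. Hdac1 was at 0.22 in KD cells (adjusted p = 0.0361) and 0.46 in parental cells (adjusted p = 0.000692) on the log2 scale. The KD value passed in 9 of 18 alternatives, and without 1 library the class I count ran from 0 to 3 in KD and from 2 to 3 in parental cells. Hdac3 was lower in KD cells (-0.28), and Hdac2 (-0.40) and Hdac8 (-0.67) were lower in parental cells. Of 7 sirtuins, 3 were higher and 1 lower in each genotype with edgeR, slightly above the same background. In KD cells, where Sirt5 was near the threshold (adjusted p = 0.0457 with edgeR), DESeq2 and limma-voom each called 3. In parental cells both called 4. Besides Sirt2, Sirt4 was higher by 0.93 in KD and 0.77 in parental cells and Sirt5 by 0.59 and 0.96, and Sirt1 was lower (-0.84 and -0.55). No class I gene or sirtuin passed for the knockdown with edgeR, DESeq2 or limma-voom, and 1 sirtuin under largazole had an unadjusted p under 0.05. With edgeR 17.8% of all tested genes passed for the knockdown under largazole and 11.1% in DMSO. At such shares few calls would fall among 4 class I genes and 7 sirtuins, so their absence does not set these genes apart.

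Across the 8 libraries the gene most like Hdac5 in its log2 CPM was Cc2d2a (Pearson r = 0.994), followed by Thbs4 (0.992) and Figf (0.992). For Hdac6 these were Ehd2 (0.988), Pcnxl4 (0.987) and Ywhab (0.984), the last a 14-3-3 gene. For Hdac10 they were Znrf3 (0.980), Syde2 (0.976) and Gna11 (0.973), and for Hdac11 Cxxc5 (0.983), Taf13 (0.982) and Nkiras2 (0.981). Hdac7 was most like Slc12a7 (0.982), Hdac4 most like Nfrkb (0.954) and Hdac9 most like Ttc3 (0.972). These values describe 8 libraries in 4 groups that share scaling and depth, and the search covered genes that averaged 5 CPM or more.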

How the data were processed

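Poly(A)-selected RNA of 8 libraries was measured, per the labels' protocols with a directional kit. The deposited values are expected counts per gene symbol, as the values show (mostly whole, a minority fractional, totals that differ), not normalized by the authors and here rounded to whole numbers. The genome build was mm10, per the submitters' processing notes. Aligner, counter and strand setting: not given in the sources used here. Hence reads of genes that overlap on opposite strands may not be separated. Of 24411 genes, 27 had symbols turned into dates. They went through the same filter as the other genes and were not named.

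edgeR 4.0.16 (R 4.3.3) fitted all 8 libraries with 1 mean per group, TMM scaling, filterByExpr (minimum count 10, minimum total 15) and the two-sided quasi-likelihood F test. Adjusted p is by Benjamini-Hochberg over 12517 genes with a threshold of 0.05. SE was taken as the absolute log2 fold change over the root of its F statistic. The common biological coefficient of variation was 0.0946. Of the 7 deacetylases, Hdac11 passed the filter through 3 groups and the others through all 4. Alternatives were relative log expression, upper-quartile and library-total scaling, no filter, a strict filter (count 30 and 1 CPM), DESeq2 1.42.0, limma-voom (limma 3.58.1), the compared libraries alone, a replicate block, leaving out Rn45s, and leaving out each library. CPM per kb uses GENCODE M21 union exon lengths. Likeness is Pearson r of log2 CPM with a prior count of 2.

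The 7 genes and all lists were chosen with earlier results of these data known, so list counts are descriptions. The rule named each of the 7 genes, the other deacetylases that passed and, per list and comparison, up to 4 passing genes with the largest change.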

Additional observations from a re-analysis of the deposited data

Results flagged for a closer look

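Odc1, which encodes ornithine decarboxylase, the first enzyme of polyamine synthesis, was the one gene of the lists to pass the test of the difference between the KD and the parental largazole response (-0.89 on the log2 scale, 95% interval -1.15 to -0.62, adjusted p = 0.0203 with edgeR). It averaged 1360 CPM in KD largazole against 2121 CPM in KD DMSO, and 1051 CPM in parental largazole against 886.6 CPM in parental DMSO. The log2 fold changes with largazole were -0.64 in KD cells (adjusted p = 0.000175) and 0.25 in parental cells (adjusted p = 0.0336). The difference passed in 11 of 17 alternatives, with values of -0.996 to -0.772. It was lost without any 1 of the parental or KD DMSO libraries (adjusted p = 0.0782 to 0.233).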

How the results depend on the processing

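Of the comparisons of the 7 deacetylases with their alternatives, 546 kept direction and side of the threshold, 35 fell under it, 12 newly passed it and 24 changed sign. Hdac5 with largazole in both genotypes, Hdac5 with the knockdown under largazole and Hdac11 with largazole in KD cells passed under all alternatives. The sign of the Hdac4 value for largazole in parental cells turned with no filter (-0.013) and with the replicate block (-0.00035), and limma-voom turned the Hdac11 difference between responses to 0.071. None of these values passed, and the cause was not tested. Leaving out 1 library gave sign changes in the log2 values of Hdac4 (-0.16 to 0.15 for largazole in parental cells, -0.36 to 0.72 in KD cells, -0.53 to 0.55 for the knockdown under largazole, -0.35 to 0.71 for the difference), Hdac7 (-0.26 to 0.017 for largazole in KD cells, -0.12 to 0.15 for the difference), Hdac9 (-0.11 to 0.64 for largazole in parental cells, -0.48 to 0.34 for the knockdown under largazole, -0.0021 to 0.82 for the difference), Hdac10 (-0.040 to 0.085 for largazole in KD cells) and Hdac11 (-0.50 to 0.70 for the difference). Without 1 library, the number of the 7 genes called ran from 1 to 3 for largazole in parental cells, 0 to 3 for the knockdown in DMSO and 1 to 2 for the knockdown under largazole, where upper-quartile scaling and a fit of only the compared libraries each called 1. Over all tested genes, the knockdown in DMSO called 3248 with only the compared libraries (1734 higher, 53.4%, against 63.9% in the fit of 8 libraries) and 418 to 3016 without 1 library. The knockdown under largazole called 957 with only the compared libraries (55.4% higher, against 45.7%) and 812 to 4121 without 1 library. The difference called 83 with DESeq2, 114 with no filter, 119 with the replicate block and 2 to 544 without 1 library. Deviations of same-numbered libraries correlated at -0.008 to 0.364 between groups (10183 genes). Of the 6 correlations 4 were over 0.1 and both others, of parental DMSO with either KD group, were near 0, so whether the numbers pair the libraries was not settled and the fit without the block was kept. With the replicate block, 3 of the 7 genes were called in each largazole and each knockdown comparison. Upper-quartile scaling moved the median of all genes for largazole in parental cells to 0.11, against 0.03. List counts were recomputed under the same alternatives, chosen after the data were seen. Hdac9 had at most 31 counts in a library and Hdac11 at most 17 in DMSO.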
